A study of Mus musculus with 2 samples.

Results

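The miRNA genes described here are best known from epithelia and sense organs, and their reads were counted in the left cerebral cortex of mice: the miR-200 family (Mir200b, Mir200a, Mir429, Mir200c and Mir141), Mir203, Mir205, and the cluster of Mir183, Mir96 and Mir182. They were chosen by gene name, from the GENCODE M21 symbols of the Ensembl identifiers in the count tables, and not by any measured value. All 10 were found among 2202 counted miRNA genes. The tissue came from male B6CASTF1/J mice aged 2 months, which are hybrids between C57BL/6J and CAST/EiJ mice, and RNA fragments shorter than 30 bases were sequenced. The series holds 1 group of 2 libraries, from the animals numbered 3 (library 1) and 4 (library 2), with no treated or control animals. The labels number the samples as biological replicates 1 and 2, yet both share a donor identifier. Whether they are separate animals is thus not certain, and the spread between them may be technical. Any p-value here compares 2 libraries and no conditions. Library 1 had 3827158 and library 2 had 4553291 reads on the sense strand of miRNA genes. Levels are given as counts per 1000000 of those reads (CPM), so that 1 read was worth 0.261 CPM in library 1 and 0.220 CPM in library 2.

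MiRNAs are short RNAs cut from hairpin precursors. They guide Argonaute proteins to messenger RNAs, mainly through the seed, bases 2 to 8 of the mature strand. The miR-200 family holds epithelial cells in their state by repressing the transcription factors Zeb1 and Zeb2, and in the nervous system it is known from olfactory precursors. MiR-203 acts in the stratifying epidermis, where it represses p63, and miR-205 is a miRNA of basal epithelial layers. The miR-183, miR-96 and miR-182 cluster belongs to photoreceptors, hair cells of the inner ear and other sensory cells, and mutations in the miR-96 seed cause hearing loss in mice and humans.

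The mature sequences of the arm usually loaded as the guide are shown because their seeds group the genes and because the family members differ by few bases. They were taken from RefSeq (GRCm38.p6), which held all 10 genes, run 5′ to 3′, and carry the seed in capitals.
miR-200b-3p: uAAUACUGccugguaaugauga
miR-200c-3p: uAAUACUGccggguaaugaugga
miR-429-3p: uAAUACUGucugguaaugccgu
miR-200a-3p: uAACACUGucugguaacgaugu
miR-141-3p: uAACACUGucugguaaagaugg
miR-203-3p: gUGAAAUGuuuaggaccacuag
miR-205-5p: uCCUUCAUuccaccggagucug
miR-183-5p: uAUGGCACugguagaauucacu
miR-96-5p: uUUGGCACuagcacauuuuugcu
miR-182-5p: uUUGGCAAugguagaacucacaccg

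These sequences fell into 7 seed groups. Mir200b, Mir200c and Mir429 share AAUACUG, Mir200a and Mir141 share AACACUG, and the other 5 seeds each belong to a single one of the genes. Counted from 1 at the 5′ end, with the base of miR-200b-3p first, miR-200a-3p carries U4C, C9U, U17C and A22U, of which only U4C lies in the seed. MiR-200c-3p differs from miR-200b-3p by U11G and A22G over 22 compared positions, and miR-141-3p differs from miR-200a-3p by C17A and U22G, with the miR-200a-3p base first. MiR-183-5p and miR-182-5p match at 18 of 22 positions.

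The counts can separate these genes where a read covers the differing bases. No whole mature sequence of either arm, 20 in all, occurred in the annotated hairpin of another counted gene. The longest stretch that a hairpin shared with any other ranged from 11 to 17 bases, with 17 between Mir200a and Mir141 and 14 between Mir200b and Mir200c. Reads placed at several positions are tallied apart in the deposited tables, at 41.7% of all reads in library 1 and 41.1% in library 2, and how many of them came from these hairpins is not recorded in the tables. The tables count reads per hairpin gene, so the arms cannot be told apart in the values below.

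The genes lie at 5 positions in the genome (mm10, GENCODE M21). Mir200b (ENSMUSG00000065549.3, chr4:156055681-156055750), Mir200a (ENSMUSG00000065400.1, chr4:156054896-156054985) and Mir429 (ENSMUSG00000065427.1, chr4:156053905-156053987) lie on the minus strand within 1846 bases, in an intron of Ttll10 on its strand, and Mir429 also overlaps an exon of the processed transcript Gm13648. Mir200c (ENSMUSG00000065462.3, chr6:124718322-124718390) and Mir141 (ENSMUSG00000065474.1, chr6:124717914-124717985) lie 336 bases apart on the minus strand, in an intron of the non-coding transcript Gm15884, between Phb2 and Ptpn6, and Mir141 also overlaps an exon of the unclassified transcript Gm29008. Mir183 (ENSMUSG00000065619.2, chr6:30169668-30169737) and Mir96 (ENSMUSG00000065586.1, chr6:30169446-30169551) are 116 bases apart on the minus strand, with Mir182 (ENSMUSG00000076361.1, chr6:30165918-30165992) a further 3453 bases along, and no other annotated gene overlaps them. Mir203 (ENSMUSG00000065574.1, chr12:112130880-112130955, plus strand) also has no overlapping gene, and Aspg lies 3321 bases away. Mir205 (ENSMUSG00000065533.1, chr1:193507463-193507530, minus strand) overlaps an exon of the lincRNA 4631405K08Rik. None of the 10 genes had a read on the antisense strand in either library, so the strand-blind column gave the same counts for all of them.

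All 10 genes were low in the cortex, and they differed among themselves from Mir203, the highest, to Mir96, with hardly a read. With detection set at 10 or more reads in both libraries, 8 were detected and Mir141 and Mir96 were not. The share of detected genes over the whole table was 18.4%. Summed, the 10 genes had 1007 reads in library 1 and 780 in library 2, or 263 and 171 CPM. That is 0.0263% (95% Wilson interval 0.0247 to 0.0280%) of the sense-strand miRNA reads in library 1 and 0.0171% (0.0160 to 0.0184%) in library 2, a mean of 0.0217% ± 0.00649 (SD, n = 2). No gene reached a mean of 100 CPM. The median of the 8 detected genes was 20.4 CPM, against 95.6 CPM over all 406 detected genes of the series. Intervals cover counting error only, since no molecular identifiers were counted and reads of 1 molecule can repeat. In whole tissue, fewer cells of a type and less RNA per cell cannot be told apart. Each mature strand is 21 to 25 bases long, so levels are compared between genes without scaling by length, and any difference in how readily each strand is captured in a library was not measured.

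**Figure D1:**
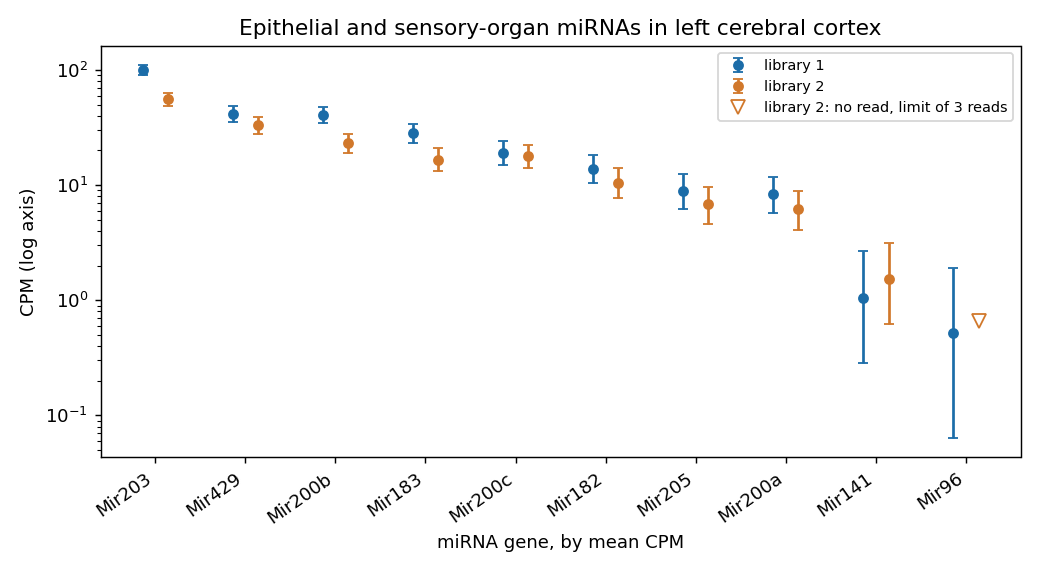
Level of each gene (CPM, log axis) in library 1 and library 2, with exact 95% counting intervals as bars and genes ordered by mean; the open triangle is the limit of 0.659 CPM for Mir96 in library 2, which had no read. Mir203 stands highest in both libraries, at 101 and 55.6 CPM, and Mir141 and Mir96 stand lowest.

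Ordered by mean, the genes ran Mir203, Mir429, Mir200b, Mir183, Mir200c, Mir182, Mir205, Mir200a, Mir141 and Mir96. The ranges over the libraries overlapped for 4 of the 9 neighbouring pairs in this order: Mir429 with Mir200b, Mir200b with Mir183, Mir183 with Mir200c, and Mir205 with Mir200a. For 3 of these 4 pairs the order by mean nevertheless held within both libraries, and Mir183 and Mir200c alone changed places, with Mir183 higher in library 1 and Mir200c higher in library 2. The ranges of the other 5 pairs were apart in these 2 libraries. The order of Mir141 over Mir96 rests on 4 reads against 2 in library 1 and 7 against 0 in library 2.

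The miR-200 family supplied the largest part of these reads, 42.1% of them in library 1 and 47.7% in library 2. Its level was 111 CPM in library 1 and 81.7 CPM in library 2 (424 and 372 reads). Mir429 had 160 and 151 reads, or 41.8 CPM in library 1 and 33.2 CPM in library 2 (37.5 ± 6.11 CPM, SD, n = 2). Mir200b had 155 and 105 reads, or 40.5 CPM in library 1 and 23.1 CPM in library 2 (31.8 ± 12.3 CPM). Both genes carry the AAUACUG seed and sit in the chromosome 4 cluster, and they were the highest of the family in each library.

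Mir200c, from the chromosome 6 cluster but with the same seed, had 73 reads in library 1 and 81 in library 2, at 19.1 and 17.8 CPM (18.4 ± 0.909 CPM, SD, n = 2). Its libraries were the closest of any of the 8 detected genes, with an SD of 4.93% of the mean. The genes of the other seed were low. Mir200a had 32 reads in library 1 and 28 in library 2, at 8.36 and 6.15 CPM. Mir141 had 4 and 7 reads, at 1.05 CPM (95% exact interval 0.285 to 2.68) in library 1 and 1.54 CPM (0.618 to 3.17) in library 2. Genes with the AAUACUG seed thus held 91.5% of the family's reads in library 1 (95% Wilson interval 88.5 to 93.8%) and 90.6% in library 2 (87.2 to 93.2%), as far as the counts per hairpin stand for that arm. The chromosome 4 cluster held 81.8% of the family in library 1 and 76.3% in library 2.

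Mir203, whose miRNA acts in skin, was the most abundant of the 10 genes. It had 386 reads in library 1 and 253 in library 2, at 101 CPM (95% exact interval 91.0 to 111) and 55.6 CPM (48.9 to 62.8), and a mean of 78.2 ± 32.0 CPM (SD, n = 2). Alone it gave 38.3% of the reads of the 10 genes in library 1 and 32.4% in library 2. It stood at rank 210 of all 2202 genes by mean CPM. Mir205, the other gene of squamous and basal epithelia, had only 34 and 31 reads, at 8.88 CPM in library 1 and 6.81 CPM in library 2 (7.85 ± 1.47 CPM), and stood at rank 338. Mir203 was thus 11.4-fold above Mir205 in library 1 (95% exact interval 7.99 to 16.6) and 8.16-fold above it in library 2 (5.61 to 12.3).

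The sensory-organ cluster came to 42.6 CPM in library 1 and 27.2 CPM in library 2 (163 and 124 reads), led by Mir183. Mir183 had 108 reads in library 1 and 76 in library 2, at 28.2 and 16.7 CPM (22.5 ± 8.15 CPM, SD, n = 2). Mir182 had 53 and 48 reads, at 13.8 CPM in library 1 and 10.5 CPM in library 2 (12.2 ± 2.34 CPM). Mir96, although it lies between them on the same strand and only 116 bases from Mir183, had 2 reads in library 1 and none in library 2. The 2 reads of library 1 correspond to 0.523 CPM (95% exact interval 0.0633 to 1.89). The count of 0 in library 2 has an exact upper bound of 0.810 CPM on the same footing, and a limit of 0.659 CPM by the rule of 3 reads.

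Genes of a cluster, whose hairpins can be cut from a shared transcript, were therefore counted unevenly, and the pattern was alike in both libraries. Mir429 exceeded Mir200a by 5.00-fold in library 1 (95% exact interval 3.40 to 7.56) and by 5.39-fold in library 2 (3.59 to 8.39). Mir200b exceeded Mir200a by 4.84-fold (3.29 to 7.33) in library 1 and by 3.75-fold (2.45 to 5.91) in library 2. The ratio of Mir429 to Mir200b was 1.03 in library 1 (0.822 to 1.30) and 1.44 in library 2 (1.11 to 1.86), so these genes could be told apart in level only in library 2. Mir200c exceeded Mir141 by 18.3-fold (6.83 to 68.8) in library 1 and by 11.6-fold (5.37 to 29.7) in library 2, each resting on under 10 reads of Mir141. Mir183 exceeded Mir182 by 2.04-fold (1.45 to 2.89) in library 1 and by 1.58-fold (1.09 to 2.32) in library 2.

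As shares, Mir200b made up 44.7% of its cluster's reads in library 1 and 37.0% in library 2, Mir429 46.1% and 53.2%, and Mir200a 9.22% and 9.86%. Mir200c made up 94.8% of the reads of its pair in library 1 and 92.0% in library 2. Mir183 made up 66.3% of its cluster in library 1 and 61.3% in library 2, and Mir182 32.5% and 38.7%. Each of 8 shares, the 7 gene shares and that of the AAUACUG seed, was compared between the libraries by a two-sided Fisher's exact test with Benjamini-Hochberg adjustment. None passed 0.05. The lowest Fisher's exact p was that of Mir200b (library 1 minus library 2 7.70 percentage points, p = 0.0517, adjusted p = 0.316). Mir429 followed (library 1 minus library 2 -7.06 percentage points, Fisher's exact p = 0.0791, adjusted p = 0.316). The clusters held 77 to 347 reads per library, and a p above the threshold does not show that the shares were alike.

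**Figure D2:**
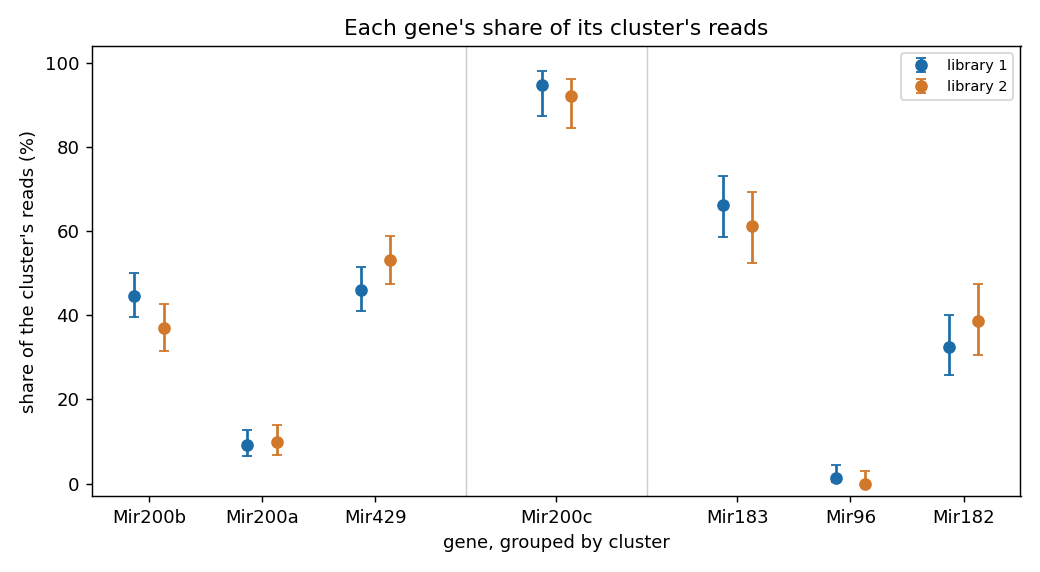
Share of each cluster's reads (%) held by each gene in library 1 and library 2, with 95% Wilson intervals as bars; grey lines part the clusters, and Mir141 holds what Mir200c leaves of their pair. Mir200a stays under 10% of its cluster and Mir96 near 0% of its own in both libraries.

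Of these genes 3, Mir203, Mir200b and Mir183, had more CPM in library 1 beyond counting error, and 0 had more in library 2. Over the whole series 48.4% of the genes tested differed by the same test, and 25.2% were higher in library 1. By edgeR's exact test, which allows for spread beyond counting error, 0 of the 9 tested genes differed, beside 0.787% over the series. Genes with 10 or more reads in total entered a two-sided exact binomial test, with the library totals setting the null share, adjusted by Benjamini-Hochberg over all 508 genes tested. This took in all of the 10 genes except Mir96. Mir203 was 1.82-fold higher in library 1 (95% exact interval 1.55 to 2.14, adjusted p = 4.44e-13 by the exact binomial test). Mir200b was 1.76-fold higher (1.36 to 2.27, exact binomial adjusted p = 2.12e-05), and Mir183 was 1.69-fold higher (1.25 to 2.30, exact binomial adjusted p = 0.00120). The genes that passed lie at 3 different positions in the genome and have 3 different seeds. They were also, together with Mir429, the tested genes of this set with the most reads, where the binomial test passes smaller differences.

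The other 6 tested genes did not pass. Mir429 had a ratio of library 1 to library 2 of 1.26 (95% exact interval 1.00 to 1.59, exact binomial adjusted p = 0.0895), Mir200a of 1.36 (0.793 to 2.34), Mir182 of 1.31 (0.872 to 1.98), Mir205 of 1.30 (0.778 to 2.20) and Mir200c of 1.07 (0.771 to 1.49). Mir141 had a ratio of 0.680 (0.146 to 2.67). In all, 8 of the 9 tested genes had a ratio above 1 and their median log2 ratio was 0.39, against a median of -0.01 over all 508 genes, of which 252 had a ratio above 1. All 9 values share the same 2 libraries, and genes of a cluster can also share a transcript, so they are not independent.

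**Figure D3:**
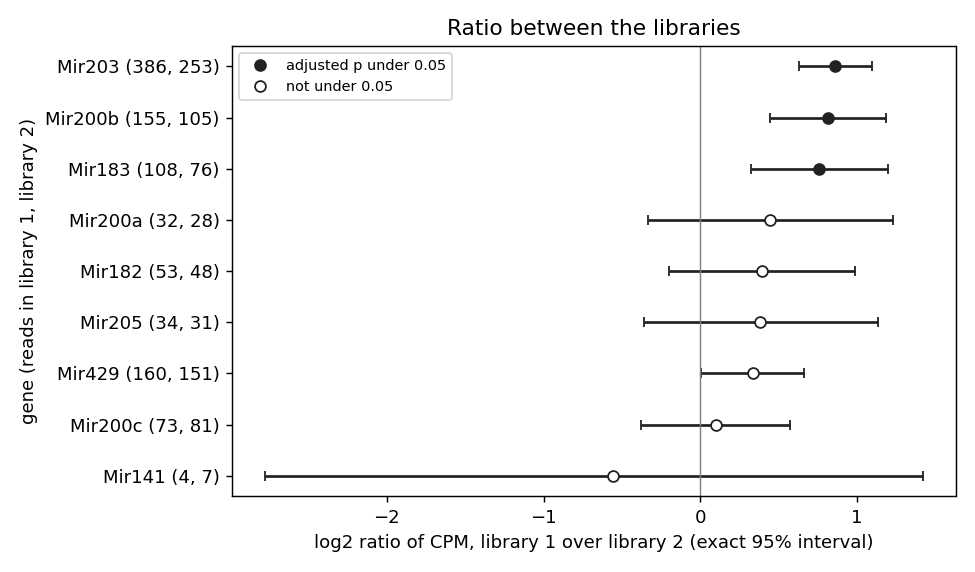
Log2 ratio of CPM, library 1 over library 2, for the 9 tested genes, with exact 95% intervals as bars and the reads in library 1 and library 2 in brackets; filled points passed the exact binomial test. Mir203, Mir200b and Mir183 lie to the right of 0 with their whole intervals, and Mir141, with 4 and 7 reads, has the widest interval.

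Differences of this kind were common in the series. In number, 246 of the 508 genes passed the exact binomial test, but that count includes genes with many more reads. Among 274 other tested genes with a mean between 1.29 and 78.2 CPM, the range of the 9 genes, 66 (24.1%) differed, 39 of them higher in library 1, and the median difference was 1.43-fold, against 1.36-fold for the 9 genes. The binomial test allows for counting error alone. EdgeR's common dispersion, which measures the spread beyond counting error, came to a coefficient of variation of 33.3%. With edgeR's exact test at that dispersion, 0 of the 9 genes and 4 of the 508 (0.787%) differed at an adjusted p under 0.05. At an unadjusted p under 0.05 the counts were 0 of the 9 genes and 25 of the 508, and the lowest unadjusted edgeR exact p among the 9 genes was 0.217, for Mir203. That dispersion comes from the same 2 libraries, so edgeR's exact test is no replicated test here.

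**Figure D4:**
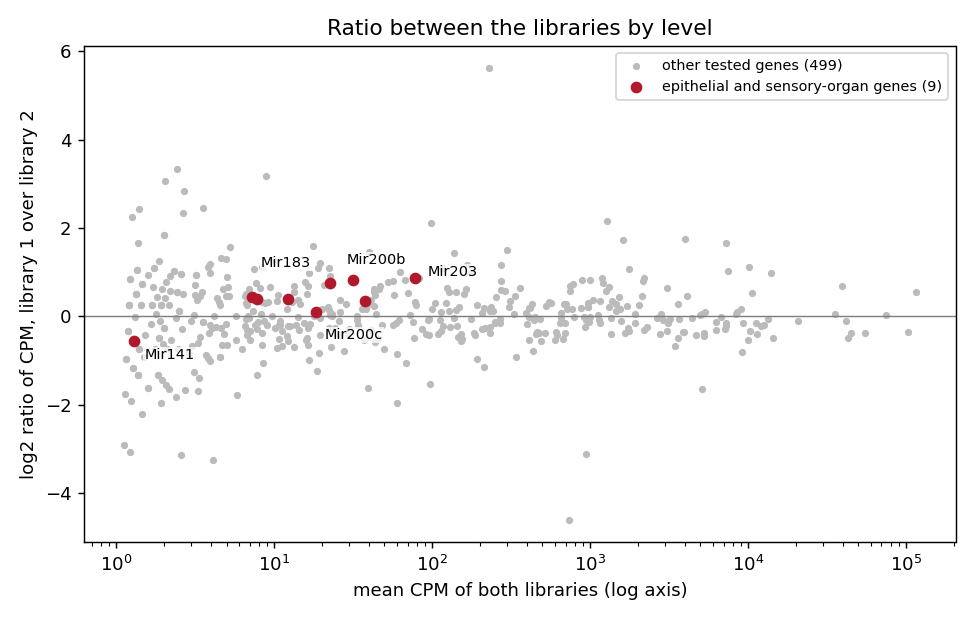
Log2 ratio of CPM, library 1 over library 2, against mean CPM (log axis) for the 9 tested epithelial and sensory-organ genes (red) and all others of the 508 tested genes (grey). The red points lie inside the cloud of other genes at their level, with Mir203 furthest up at 0.86 and Mir141 furthest down at -0.56.

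The summed level of the 10 genes was 1.54-fold higher in library 1 (95% exact interval 1.40 to 1.69, counting error only), and without Mir203 it was 1.40-fold higher (1.25 to 1.58). Marker lists of other cell types also differed between the libraries in their summed CPM, in both directions. The list of other epithelia (Mir31, Mir192, Mir194-2, Mir215 and Mir375) stood at 2620 CPM in library 1 and 1990 CPM in library 2, although its Mir375 was higher in library 2 (132 CPM in library 1 and 174 CPM in library 2, exact binomial adjusted p = 3.95e-06). The microglia and leukocyte list, with 5 genes, stood at 2164 CPM in library 1 and 1751 CPM in library 2. Of these 5, Mir150, Mir146 and Mir223 were higher in library 1 by the exact binomial test. Mir142 (45.2 CPM in library 1 and 43.5 CPM in library 2) and Mir155 (36.6 and 45.7 CPM) did not pass. The oligodendrocyte list, with 2 genes, stood at 4975 CPM in library 1 and 3461 CPM in library 2, and the astrocyte list, with 2 genes, at 14154 and 9725 CPM. The red blood cell list, with 3 genes, stood at 134 CPM in library 1 and 1549 CPM in library 2, and the vessel list, also with 3, at 14355 and 18575 CPM. Members of these last 2 lists differed by the exact binomial test in both directions: Mir486 of the red blood cell list (51.0 CPM in library 1 and 34.7 CPM in library 2) and Mir145a of the vessel list (254 and 221 CPM) were higher in library 1, while Mir451a, Mir144, Mir126a and Mir143 were higher in library 2. The choroid plexus, pigment epithelium and ciliated cell list of 7 genes stood at 721 CPM in library 1 and 724 CPM in library 2, with Mir449b and Mir449c at 0. The part of such cells in the higher counts of Mir203, Mir200b and Mir183 was not tested.

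Against the miRNAs that mark neurons, oligodendrocytes, astrocytes and vessels the 10 genes were scarce. The neuron list of 5 genes, led by Mir139 at 115590 ± 30882 CPM (SD, n = 2), summed to 227859 CPM in library 1 and 180238 CPM in library 2, on average 939-fold the 217 CPM of the 10 genes together. By the exact binomial test 4 of these 5 were higher in library 1, beside 25.2% of all tested genes. That share includes many genes with far fewer reads, so it is no like background. At the depth of the neuron genes small differences passed, as for Mir137 at a log2 ratio of 0.09. Mir127 was higher in library 2 (35649 CPM in library 1 and 50487 CPM in library 2). All 5 neuron genes, both oligodendrocyte genes and both astrocyte genes were detected. The endothelial Mir126a stood at 9962 ± 2634 CPM, the oligodendrocyte Mir338 at 2161 ± 815 CPM, and the leukocyte Mir150 at 1155 ± 191 CPM. Mir204, the leading gene of the choroid plexus list, was 5.67-fold above Mir203 at 444 ± 19.7 CPM. Other genes of such lists were lower: 3 of the 5 microglia and leukocyte genes lay within the range of the 10 genes (0.261 to 78.2 CPM). So did 3 of the 7 choroid plexus list genes and 2 of the 3 red blood cell genes.

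Other miRNAs known from epithelia did not share one level. Mir31, which is abundant in keratinocytes, was at 2123 ± 465 CPM (SD, n = 2) and thus 27.1-fold above Mir203. Mir375, a miRNA of islets and secretory epithelia, was at 153 ± 29.5 CPM. The gut genes Mir194-2 (19.5 ± 10.8 CPM) and Mir192 (9.01 ± 0.921 CPM) lay in the range of the 10 genes, and Mir215 had no read. By the exact binomial test 2 of the 4 tested genes of that list, Mir31 and Mir194-2, were higher in library 1 and Mir375 was higher in library 2, beside the share of 48.4% over all genes. The list for liver, muscle and pancreas, 8 genes led by the liver Mir122 at 75.5 ± 4.42 CPM, summed to 115 CPM in library 1 and 136 CPM in library 2, and all 8 lay within the range of the 10 genes. That range is wide, from 0.261 CPM (Mir96) to 78.2 CPM (Mir203), so lying within it says little. Of the 8 genes 3 were detected, against 8 of the 10 epithelial and sensory genes. Those 3, Mir122, Mir206 (29.5 CPM) and Mir499 (14.3 CPM), stood among the levels of the detected epithelial and sensory genes. The other genes of that list lay lower, at 2.39 CPM or less. Genes of the leukocyte, red blood cell and choroid plexus lists also lay among the levels of the detected epithelial and sensory genes.

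**Figure D5:**
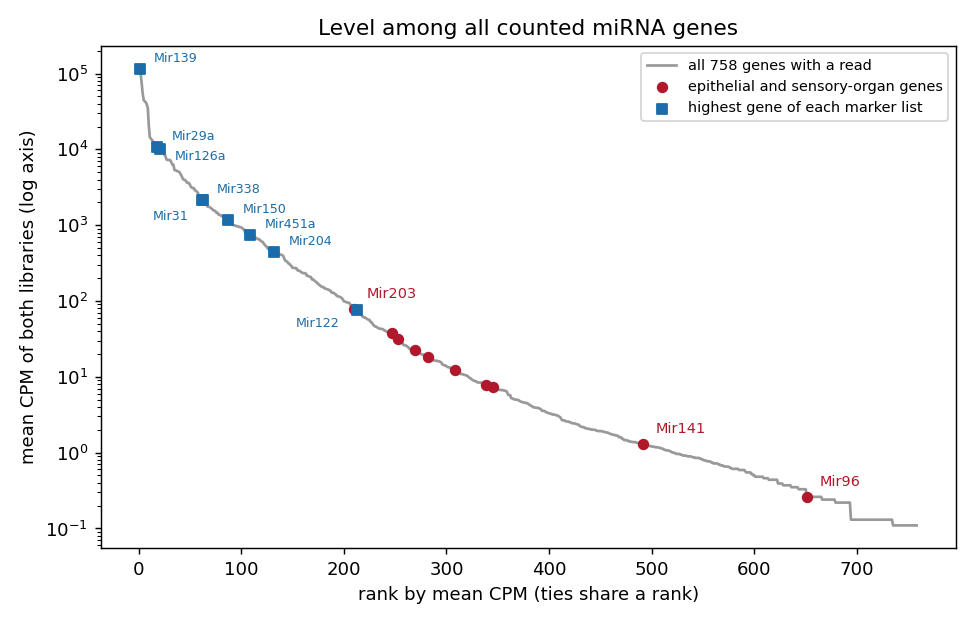
Mean CPM of both libraries (log axis) against rank for the 758 genes with a read (line), with the 10 epithelial and sensory-organ genes as red circles and the highest gene of each marker list as blue squares. The red circles run from rank 210 (Mir203) to rank 651 (Mir96), and of the blue squares only Mir122 lies among them.

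For each detected gene, the other detected genes nearest to it in level were found by the distance in log2 of CPM plus 1 over the 2 libraries. Nearest to Mir203 was Mir410 (108 CPM in library 1 and 58.6 CPM in library 2, distance 0.12), followed by Snord43. Nearest to Mir429 were Mir218-1 and Mir25, and to Mir200b Mir449a, of ciliated cells, and Mir7j. Mir200c lay nearest to Mir92-2 and Mir669h, and Mir200a to Mir6915 and Mir6986. Mir183 lay nearest to Mir3070b (29.5 CPM in library 1 and 15.8 CPM in library 2, distance 0.10) and Mir1264, Mir182 to Mir9-1 and Mir7688, and Mir205 to Mir1934 and Mir26a-1. With 2 values per gene this likeness describes level alone.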

How the data were processed

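The authors deposited 1 table of whole-number read counts per library, not normalized, with a strand-blind column, a column for each strand and 4 tally rows. Build mm10 and annotation M21 are given per the labels and the deposited file descriptions; aligner and version: not given in the sources used here. The column for the sense strand was used, and tally rows stayed out of library sizes. Tally rows held 66.3% of the reads in library 1 and 64.9% in library 2. Since mm10 is the C57BL/6J sequence, CAST/EiJ reads that differ from it may have been lost; this was not tested.

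CPM, Wilson and exact intervals, binomial and Fisher's exact tests were computed with scipy 1.17.1 and numpy 2.4.6 on tables read by pandas 2.3.3 (Python 3.11.15). The dispersion, edgeR's exact test and TMM factors came from edgeR 4.0.16, and size factors from DESeq2 1.42.0, in R 4.3.3. Tests were tried on simulated data.

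The 10 genes, the marker lists and the alternatives were chosen with earlier results of these data known. Named beside the 10 genes are the leading gene of each list and the 2 nearest genes in level of each detected gene. Any other list gene is an example picked with its values in view. A gene at 0 was given a limit of 3 counts.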

Additional observations from a re-analysis of the deposited data

Results flagged for a closer look

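Reads placed at several positions lie outside the counted columns and are given to no gene. No gene's count above includes them. They made up 41.7% of the reads in library 1 and 41.1% in library 2, and the tables do not say which hairpins they came from.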

How the results depend on the processing

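With a minimum of 50 reads in both libraries, 5 of the 10 genes were detected in place of 8. As a share of all reads in the tables, tallies included, the 10 genes held 0.00743% in place of 0.0217%, since the denominator is larger. With edgeR's exact test, which allows for the spread between the libraries, 0 of the 9 tested genes and 4 of the 508 differed, in place of 3 and 246. The count of 3 did not move with the strand-blind column, the count filter, TMM or DESeq2's size factors, and the ratios of the 9 genes kept their direction and their side of 0.05 in all 27 combinations of gene and alternative scaling or column. A pseudocount of 1 or 0.1 CPM cannot turn a ratio round and leaves the binomial test as it is; at 1 CPM it brought the log2 ratio of Mir141 to -0.31, where it was -0.56 without. The 27 combinations were also a weak check, since they changed little. TMM moved the median log2 ratio of all tested genes by 0.02 and DESeq2's size factors moved it by 0.003. The strand-blind counts of the 10 genes equal their sense-strand counts. Leaving out either library left 8 genes detected, and the share was then 0.0171 to 0.0263%. A test between libraries needs both, so none was left out there. No paired analysis was possible because the series holds a single group. With 2 libraries each SD rests on 2 values, and genes with under 100 reads carry wide counting intervals.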
